A study of Mus musculus with 3 samples.

Results

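The collagen genes are the family of genes that encode the chains of collagen, the main structural protein of connective tissue and of basement membranes. They were taken as every probe, control spots aside, whose gene name on the array begins with Col, a number, the letter a and a number. This rule gave 41 names with 82 probes on 100 spots, out of 27670 names with 41174 probes on 43379 spots. The name Col4a3bp also met it, but that gene (now Cert1) encodes a ceramide transfer protein and not a collagen, which left 40 collagen genes with 78 probes on 96 spots. Of these, 11 encode chains of fibrillar collagens (25 probes), 6 encode chains of type IV collagen (13 probes) and 23 encode other collagens (40 probes).

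The tissue was the utero-tubular junction, the narrow passage between uterus and oviduct, of adult CD-1 mice, an outbred strain, and all females were in estrus. The first pool came from females mated with normal males, the second from females mated with vasectomized males, whose ejaculate holds seminal fluid without sperm, and the third from females that had not mated. Each pool held 10 females and was hybridised as Cy3-labelled cRNA to 1 single-colour Agilent array, so the group size is 1 array and no value has an error between animals. How long after mating the tissue was taken is not stated in the labels.

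Every collagen molecule is a triple helix of 3 chains, of which the fibrillar types assemble into the fibrils that give tissue its tensile strength. Type IV collagen instead forms a sheet-like network in the basement membranes beneath epithelium and around vessels and muscle cells. In the wall of the uterus and oviduct, fibroblasts of the stroma and smooth muscle cells are known sources of fibrillar collagen. Before secretion, chains are hydroxylated and folded by dedicated enzymes and chaperones, and outside the cell they are trimmed, crosslinked and, during remodelling, cut by metalloproteinases.

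Values below are scaled signals, in multiples of the 75th percentile of the array, or log2 ratios of these between arrays. A gene is called higher or lower where the ratio is at least 2-fold (1 on the log2 scale). The array of the vasectomized mated pool stood apart from the other two. The 75th percentile of the unscaled signal was 709 in the normal mated pool, 295 in the vasectomized mated pool and 876 in the not mated pool. The share of spots well above background was 70.7%, 65.9% and 68.0% in the same order. Among all genes with over 1 probe compared, probes of 1 gene lay over 2-fold apart in 14.6% of genes for normal mated versus not mated, but in 54.3% for vasectomized mated versus not mated and 51.7% for normal mated versus vasectomized mated. Each array was scaled on its own signals, and the vasectomized mated array enters the comparison of normal mated with not mated females only through the choice of the probe that stands for a gene. With the probe chosen on the normal mated and not mated arrays alone, the value of 1 compared collagen gene changed (Col24a1, -2.50 in place of -1.36), and the counts of genes higher and lower did not. The 3 comparisons share arrays in pairs, so they are not independent of one another.

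A total of 34 collagen genes had a probe well above background on all 3 arrays. By array, 35 genes were above background in the normal mated pool, 34 in the vasectomized mated pool and 36 in the not mated pool. Col4a3 was above background only in the not mated pool, and Col9a3 on 2 arrays. Col9a1, Col10a1, Col19a1 and Col28a1, which encode chains of minor collagens, were not well above background on any array and were not compared. Epithelial and smooth muscle markers, 7 of 7 each, were well above background on every array.

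Between normal mated and not mated females, the collagen genes leaned to one side. Of 36 genes compared, 0 were at least 2-fold higher in the normal mated pool, against 9.83% of all 19306 genes compared, and 21 were at least 2-fold lower, against 13.2% of all genes. Their median log2 ratio was -1.19, beside -0.05 over all genes, and 32 of the 36 values were below 0. The 3 classes had medians close to one another: -1.19 for the fibrillar chains (7 of 11 lower), -1.27 for type IV (4 of 6 lower) and -1.03 for the other collagens (10 of 19 lower). Their ranges overlapped, at -2.65 to -0.10, -1.99 to 0.91 and -2.90 to 0.58 in the same order. With 1 array a group these counts describe 3 pools and carry no test. In a pool of whole tissue, fewer cells that make a transcript and less of it per cell cannot be told apart.

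**Figure D1:**
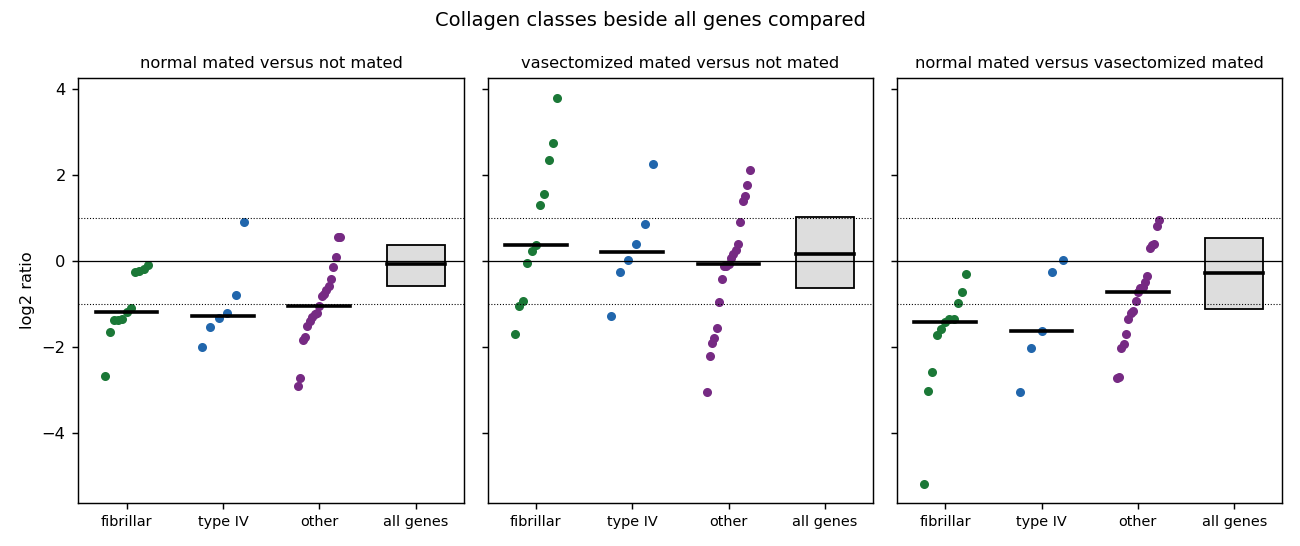
Log2 ratio of each collagen gene (points, 1 per gene, in order within a class) for the 3 comparisons, with the median of the class as a bar. The box shows the middle 50% of all genes compared, with its median, and dotted lines mark 2-fold. In the left panel no collagen gene lies above the upper dotted line and all 3 class medians lie below the lower one.

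Among the fibrillar collagens, type I is the most abundant collagen of the body and is built from the chains of Col1a1 and Col1a2. Col1a1 gave a scaled signal of 17.2 in the normal mated pool, 51.1 in the vasectomized mated pool and 39.1 in the not mated pool. The normal mated pool was thus lowest, 2.28-fold below the not mated pool. The probe is printed 10 times, and the SD of its log2 signal between spots was 0.0403, 0.0416 and 0.0509 in the same order, far below that difference, though these spots share 1 RNA pool and leave out the spread between animals. Col1a2 had 24.5 in the normal mated pool, 61.6 in the vasectomized mated pool and 63.4 in the not mated pool. Here too the normal mated pool was low, 2.59-fold below the not mated pool, while the vasectomized mated pool differed from the not mated pool by 1.03-fold on this probe and by 1.91 on the log2 scale, higher, on the other.

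The other probes of both genes pointed the same way in the normal mated pool. Those of Col1a1 gave log2 ratios of -1.69 and -1.56, and the other probe of Col1a2 gave a bound of -1.51, since it was not well above background in the normal mated pool. For vasectomized mated versus not mated the 3 probes of Col1a1 gave 0.39, -0.19 and -0.76.

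Col3a1, the single chain of type III collagen, which is laid down with type I in distensible organs, did not show one pattern across its probes. Its brightest probe gave 50.9 in the normal mated pool, 304 in the vasectomized mated pool and 59.6 in the not mated pool. That probe set the vasectomized mated pool apart, 5.10-fold above the not mated pool, and put the normal mated pool within 2-fold of it (-0.23). A dimmer probe gave 0.0646, 0.160 and 0.161 in the same order, so that on it the normal mated pool was low (-1.32) and the vasectomized mated pool level with the not mated pool (-0.01). A further probe, not well above background in the not mated pool, gave a bound of 3.45 for vasectomized mated versus not mated.

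The promoters of Col1a2, low in the normal mated pool on both probes, and of Col3a1, whose probes disagreed, are shown as 250 bases before to 50 bases after the start site (RefSeq, GRCm38.p6). Capitals mark each match to the CCAAT box (CCAAT), the GC box (GGGCGG) and the TATA box (TATAAA) on either strand, and no matches overlap. Col1a2 lies at chr6:4505368-4505667 on the plus strand and Col3a1 at chr1:45311288-45311587 on the plus strand.
Col1a2: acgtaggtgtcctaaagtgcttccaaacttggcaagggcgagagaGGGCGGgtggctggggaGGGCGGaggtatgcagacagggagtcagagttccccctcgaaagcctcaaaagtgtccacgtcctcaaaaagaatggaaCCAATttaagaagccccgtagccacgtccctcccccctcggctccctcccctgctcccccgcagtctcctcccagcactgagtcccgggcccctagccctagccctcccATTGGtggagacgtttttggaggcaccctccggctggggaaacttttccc
Col3a1: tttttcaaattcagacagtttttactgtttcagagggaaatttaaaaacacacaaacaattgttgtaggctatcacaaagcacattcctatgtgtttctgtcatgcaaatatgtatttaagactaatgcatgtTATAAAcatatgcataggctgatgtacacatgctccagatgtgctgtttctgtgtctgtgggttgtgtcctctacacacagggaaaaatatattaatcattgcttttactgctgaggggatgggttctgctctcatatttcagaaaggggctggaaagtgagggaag
The window of Col1a2 holds 2 CCAAT boxes and 2 GC boxes, and that of Col3a1 holds 1 TATA box and neither of the other motifs. Of all 32851 promoter windows of this length in the table, 37.4% hold CCAAT, 35.7% hold GGGCGG and 13.6% hold TATAAA. Windows were found for 32 of the 40 collagen genes, 35 windows in all, of which 12 hold CCAAT, 20 hold GGGCGG and 5 hold TATAAA. The table has no entry for Col1a1, Col2a1, Col4a3, Col5a2, Col9a3, Col12a1, Col14a1 and Col22a1.

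Type V collagen copolymerises with type I and limits the width of its fibrils. Col5a1 had 1.32 in the normal mated pool, 2.15 in the vasectomized mated pool and 4.09 in the not mated pool. Both mated pools were below the not mated pool, the normal mated one 3.10-fold, and a second probe gave -1.22 for the same comparison. For vasectomized mated versus not mated the probes gave -0.93 and 0.21. Col5a2 had 0.514 in the normal mated pool, 1.30 in the vasectomized mated pool and 1.09 in the not mated pool, which put the normal mated pool 2.13-fold below the not mated pool. Col5a3, the third chain, had 0.953, 3.14 and 1.07 in the same order. It was therefore near level between the normal mated and not mated pools (-0.17) and 2.94-fold higher in the vasectomized mated pool than in the not mated pool.

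The remaining fibrillar chains are best known from cartilage and bone. Col11a1, the type XI chain that seeds thin fibrils, had 0.0296 in the normal mated pool, 0.0581 in the vasectomized mated pool and 0.186 in the not mated pool. It was low in both mated pools, 6.29-fold after mating with normal males and 3.20-fold after mating with vasectomized males. Under the alternative ways of processing given at the end, its log2 ratio for normal mated versus not mated ran from -3.17 to -1.06. Col27a1 was also low in both, with 0.111 and 0.135 in the normal and vasectomized mated pools and 0.279 in the not mated pool. The 3 probes lay between -1.74 and -1.27 for normal mated versus not mated and between -1.30 and -0.18 for vasectomized mated versus not mated.

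The probes of Col24a1 lay far apart on the vasectomized mated array. The probe that stands for the gene gave 0.0139 in the normal mated pool, 0.499 in the vasectomized mated pool and 0.0358 in the not mated pool. It was lowest in the normal mated pool (-1.36) and 14.0-fold higher in the vasectomized mated pool than in the not mated pool. The other probe gave 0.0284, 0.0514 and 0.161 in the same order, low in both mated pools (-2.50 and -1.65 on the log2 scale). The first probe was the dimmer one in the normal mated and not mated pools and stands for the gene only through its signal in the vasectomized mated pool, so its high value there is a description of that choice.

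Col2a1 encodes type II collagen, the main fibrillar collagen of cartilage, and differed in the same manner. Its probe at chr15:97979237-97979296 (build mm7, per the file headers) is printed 10 times and gave 0.752 in the normal mated pool, 6.05 in the vasectomized mated pool and 0.897 in the not mated pool. A probe at chr15:97979257-97979316, which shares 40 of its 60 bases with the first, gave 0.203, 0.0693 and 0.211 in the same order. For normal mated versus not mated both were near 0 (-0.25 and -0.05), whereas for vasectomized mated versus not mated they gave 2.75 and -1.60, opposite in sign over largely the same sequence. The SD between the 10 spots of the first probe was 0.155, 0.212 and 0.178 in the same order, while the second is printed once and has none. Of the 5 cartilage markers measured beside it, Matn1 and Ucma were not well above background on any array, and the summed scaled signal of the list was 2.72 in the normal mated pool, 4.24 in the vasectomized mated pool and 1.69 in the not mated pool. That sum was carried by Sox9, with 2.59, 4.12 and 1.27 in the same order, while Comp and Acan were at -1.77 and -0.92 for normal mated versus not mated and at -2.54 and 0.21 for vasectomized mated versus not mated. The part of cartilage cells in this result was not tested. Col11a2, the second type XI chain, had 0.102, 0.271 and 0.109, and was 2.49-fold higher in the vasectomized mated pool than in the not mated pool on its brighter probe only (1.32, against a bound of -0.13 on the other).

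**Figure D2:**
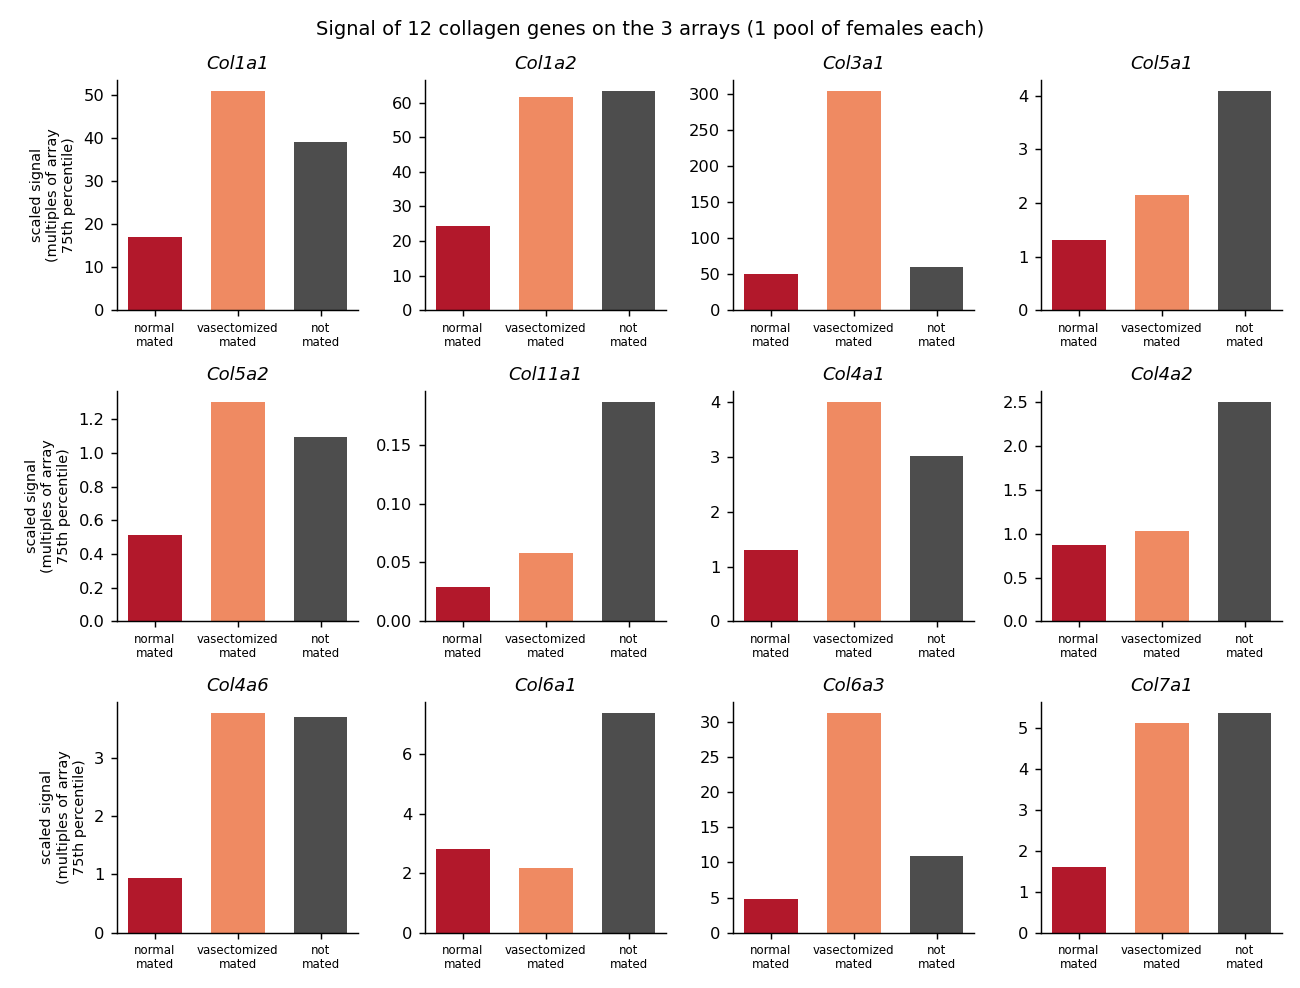
Scaled signal (multiples of the 75th percentile of the array, linear axes starting at 0) of 12 collagen genes on the 3 arrays, 1 pool of females each, for the probe that gives the gene value. In all 12 panels the normal mated bar is below the not mated bar, and the vasectomized mated bar is above it in 5 (Col1a1, Col3a1, Col5a2, Col4a1 and Col6a3) and slightly above it for Col4a6.

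Type IV collagen is assembled from 6 chains, whose genes stand in head-to-head pairs: Col4a1 with Col4a2, Col4a3 with Col4a4 and Col4a5 with Col4a6. The first pair makes the network found in nearly every basement membrane. Col4a1 had 1.31 in the normal mated pool, 4.01 in the vasectomized mated pool and 3.02 in the not mated pool, and Col4a2 had 0.871, 1.03 and 2.50 in the same order. The normal mated pool was below the not mated pool in both genes, 2.31-fold for Col4a1 and 2.87-fold for Col4a2, and the second probes gave -1.03 and -1.73. In the vasectomized mated pool Col4a2 was 2.42-fold below the not mated pool, with its second probe at -2.74. The probes of Col4a1 disagreed there, at 0.41 and -1.22, so whether the pair moved together cannot be read.

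The start sites of this pair are shown because both genes were low together in the normal mated pool and share their promoter. RefSeq (GRCm38.p6) places the start of Col4a1 at base 11312826 of chromosome 8 on the minus strand and that of Col4a2 at base 11312805 on the plus strand. The windows, chr8:11312777-11313076 for Col4a1 and chr8:11312555-11312854 for Col4a2, have 78 bases in common (chr8:11312777-11312854), read from opposite strands. Capitals mark the same 3 motifs as above.
Col4a1: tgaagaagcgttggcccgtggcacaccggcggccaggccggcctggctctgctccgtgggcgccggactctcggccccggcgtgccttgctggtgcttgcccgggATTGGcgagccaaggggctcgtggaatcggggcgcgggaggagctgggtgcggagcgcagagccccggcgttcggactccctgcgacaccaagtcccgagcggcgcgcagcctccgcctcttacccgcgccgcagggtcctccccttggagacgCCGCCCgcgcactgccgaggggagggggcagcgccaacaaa
Col4a2: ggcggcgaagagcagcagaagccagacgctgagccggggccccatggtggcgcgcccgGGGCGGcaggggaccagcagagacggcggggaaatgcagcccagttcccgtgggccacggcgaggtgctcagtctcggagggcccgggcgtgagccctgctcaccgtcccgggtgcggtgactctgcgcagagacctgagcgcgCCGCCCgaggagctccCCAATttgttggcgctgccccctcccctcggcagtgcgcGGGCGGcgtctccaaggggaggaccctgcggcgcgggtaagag
The window of Col4a1 holds 1 CCAAT box and 1 GC box, that of Col4a2 holds 1 CCAAT box and 3 GC boxes, and neither holds TATAAA. The GC box of Col4a1 lies in the shared bases and is the same site as the last GC box of Col4a2. A match describes these letters only and says nothing of which factors bind there.

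The Col4a3 and Col4a4 chains, with that of Col4a5, form the network of the kidney glomerulus. Col4a3 was well above background only in the not mated pool, where it had 0.0233, and was at least 2.50-fold lower in the normal mated pool, a bound. Under the alternative ways of processing, that log2 ratio ran from -1.84 to -0.15. Col4a4 ran the other way on its brighter probe, with 1.56 in the normal mated pool, 1.52 in the vasectomized mated pool and 0.830 in the not mated pool, 1.88-fold higher in the normal mated than in the not mated pool. Its second probe gave 0.166, 0.845 and 0.338 in the same order and so was lower in the normal mated pool (-1.02). With each array scaled to its median, the brighter probe passed 2-fold, the single collagen gene to do so in the normal mated pool.

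The last pair lies on the X chromosome and is found in basement membranes of smooth muscle and of several epithelia. Col4a6 had 0.935 in the normal mated pool, 3.78 in the vasectomized mated pool and 3.71 in the not mated pool, 3.97-fold lower in the normal mated than in the not mated pool. Its other probes gave -2.30 and -0.26 for that comparison. For vasectomized mated versus not mated the 3 probes gave 0.02, -2.06 and -0.28. Col4a5 had 0.0953, 0.783 and 0.163 in the same order. It was low in the normal mated pool without reaching 2-fold (-0.77) and 4.81-fold higher in the vasectomized mated pool than in the not mated pool, on 1 probe.

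Of the other collagens, type VI forms beaded microfibrils around cells, from the chains of Col6a1, Col6a2 and Col6a3. All 3 were called lower in the normal mated pool. Col6a1 had 2.82 in the normal mated pool, 2.17 in the vasectomized mated pool and 7.39 in the not mated pool, so both mated pools were low (-1.39 and -1.77). Col6a2 had 1.27, 0.649 and 2.97 in the same order, low in both mated pools (-1.23 and -2.20), but its dimmer probe gave 0.42 and 2.61. Col6a3 had 4.78 in the normal mated pool, 31.3 in the vasectomized mated pool and 11.0 in the not mated pool, 2.29-fold lower in the normal mated pool and 2.86-fold higher in the vasectomized mated pool. Its second probe, above background in the not mated pool only, gave bounds of -2.27 and -1.21.

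The fibril-associated collagens sit on the surface of fibrils. Col22a1, known from tissue junctions such as that of muscle and tendon, had 0.0377 in the normal mated pool, 0.0959 in the vasectomized mated pool and 0.281 in the not mated pool. It had the lowest ratio of all collagen genes for normal mated versus not mated (-2.90), and its second probe gave -2.52. Under the alternative ways of processing that ratio ran from -3.41 to -1.22. For vasectomized mated versus not mated its 2 probes gave -1.55 and -0.46. Col9a2, a type IX chain, had 0.175, 0.141 and 1.15 in the same order, low in both mated pools, by 6.57-fold in the normal mated and 8.16-fold in the vasectomized mated pool. Col20a1 was just past the threshold in the normal mated pool (-1.03). Col16a1, Col14a1, Col12a1 and Col9a3 stayed within 2-fold of the not mated pool in the normal mated pool, at -0.75, -0.66, -0.41 and -0.12.

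Col7a1 forms the anchoring fibrils that fasten epithelial basement membrane to the stroma. It had 1.59 in the normal mated pool, 5.11 in the vasectomized mated pool and 5.36 in the not mated pool, 3.37-fold lower in the normal mated than in the not mated pool. Col15a1 and Col18a1 encode proteoglycan-like collagens of the basement membrane zone. Col15a1 had 0.400, 2.58 and 0.974 in the same order, the lowest in the normal mated pool (-1.28, with a bound of -1.30 on the second probe) and the highest in the vasectomized mated pool (1.41, and 1.84 on the second probe). Col18a1 had 11.4, 15.9 and 17.1 and was within 2-fold in both mated pools (-0.58 and -0.10), with its second probe at -0.69 and -1.01.

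The transmembrane collagens were mixed. Col13a1, which sits at cell contacts, had 0.0563 in the normal mated pool, 0.212 in the vasectomized mated pool and 0.200 in the not mated pool, so that the normal mated pool alone was low (-1.83). Its second probe, above background in the not mated pool only, gave a bound of -0.91 for normal mated versus not mated. Col23a1 had 0.152, 0.115 and 0.432 in the same order, low in both mated pools (-1.51 and -1.90), though its 3 probes spread over -1.51 to -0.22 in the normal mated pool and -1.90 to -0.07 in the vasectomized mated pool. Col17a1, a component of hemidesmosomes, was level in the normal mated pool (0.10) and 4.32-fold higher in the vasectomized mated pool than in the not mated pool. Col25a1 was within 2-fold in both (0.58 and 0.91). Of the short-chain collagens, Col8a1 was at -0.81 and Col8a2 at 0.57 in the normal mated pool, and Col8a2 was 3.43-fold higher in the vasectomized mated pool than in the not mated pool.

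A total of 20 collagen genes had over 1 probe compared between normal mated and not mated females. In 10 of them every probe was at least 2-fold lower in the normal mated pool, against 5.76% of all genes with over 1 probe, and in 0 was every probe higher, against 4.76%. These 10 were Col1a1, Col1a2, Col5a1, Col24a1, Col27a1, Col4a1, Col4a2, Col6a3, Col15a1 and Col22a1, bounds included. Probes of 1 gene lay over 2-fold apart in 7 of the 20 genes, against 14.6% of all such genes, and had opposite signs in 3 of them, against 28.4%.

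**Figure D3:**
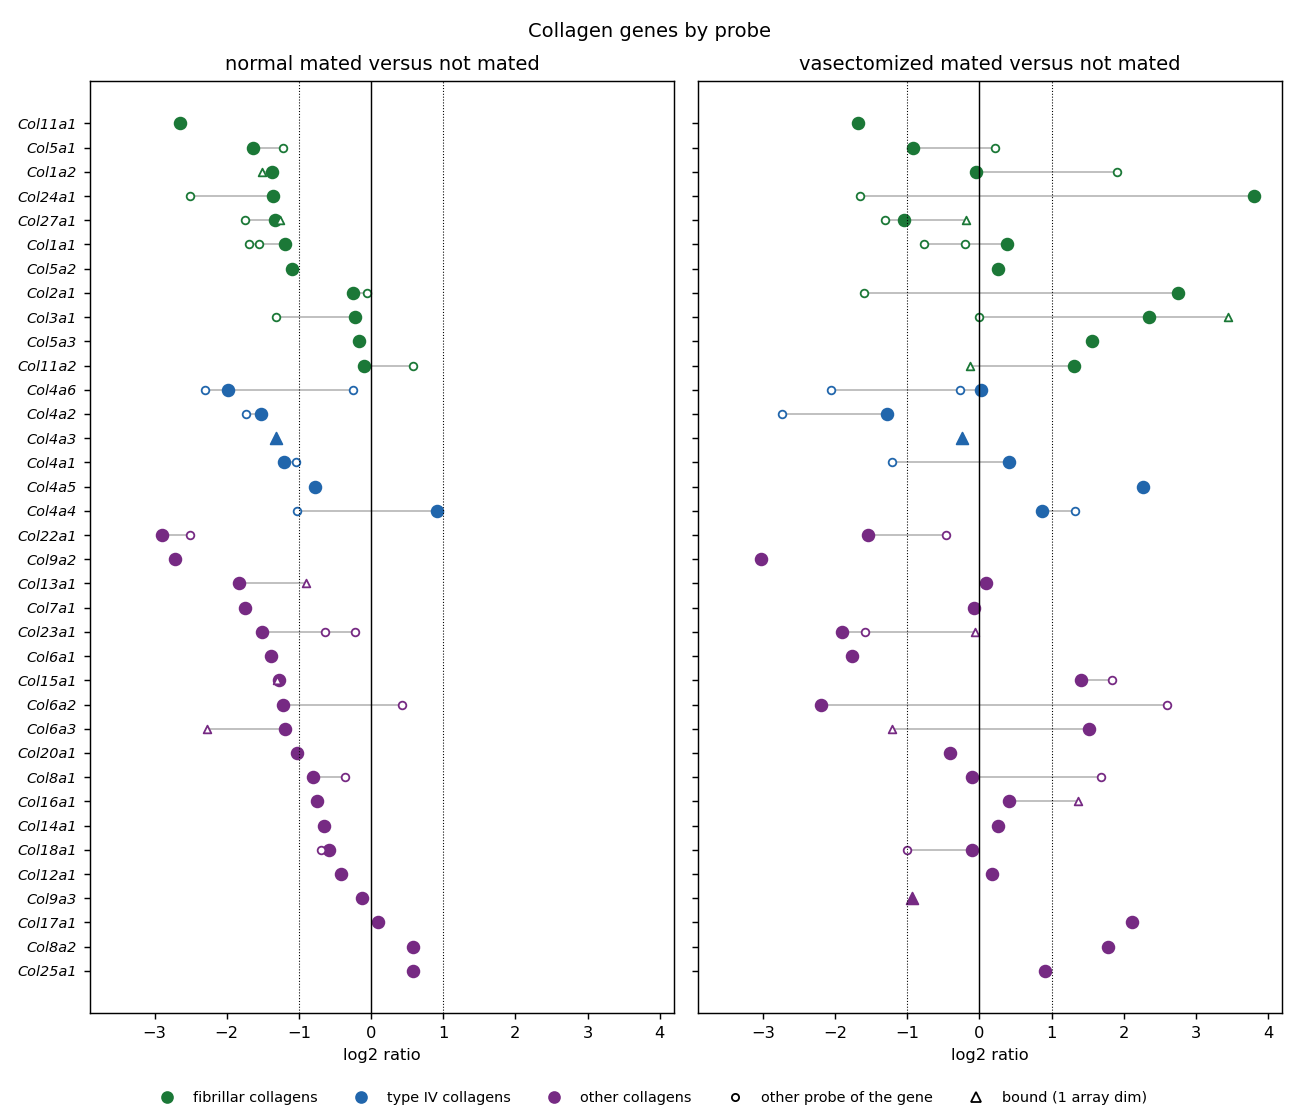
Log2 ratio of every compared probe of each collagen gene. Filled symbols give the probe that stands for the gene, open symbols its other probes, triangles a bound, and grey lines join the probes of a gene. Dotted lines mark 2-fold. Probes cluster below 0 for normal mated versus not mated (left) and spread to both sides for vasectomized mated versus not mated (right).

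For vasectomized mated versus not mated, the collagen genes went both ways. Of 36 genes compared, 10 were at least 2-fold higher, against 25.8% of all 19312 genes compared, and 8 were at least 2-fold lower, against 16.5%. The median log2 ratio was 0.13, beside 0.18 over all genes. With each array scaled to its 246 spike-in spots in place of its 75th percentile, 1 was higher and 30 were lower, beside 1.1% and 88.8% of all genes. At the 75th percentile, those higher were Col24a1, Col2a1, Col3a1, Col5a3 and Col11a2 among the fibrillar chains, Col4a5 of type IV, and Col17a1, Col8a2, Col6a3 and Col15a1 of the others, and all of these but Col24a1 and Col2a1 turned below 0 with spike-in scaling. Those lower were Col11a1 and Col27a1, then Col4a2, and Col9a2, Col6a2, Col23a1, Col6a1 and Col22a1. The class medians were 0.39 for the fibrillar chains, 0.22 for type IV and -0.07 for the others.

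Probes of the same gene often disagreed in this comparison. Of 20 collagen genes with over 1 probe compared, 16 had probes over 2-fold apart and 12 had probes of opposite sign, against 54.3% and 42.5% of all such genes. Among the fibrillar chains, 8 of 8 genes had probes over 2-fold apart and 7 of 8 had probes of opposite sign. Every probe was higher in 1 gene, Col15a1 (7.75% of all genes), and every probe lower in 1 gene, Col4a2 (7.56%). Spike-in scaling moved the median of all genes to -2.61, and it shifts every ratio against the vasectomized mated array alike, those of the pathway genes below included. The median of the collagen genes minus that of all genes was -0.05 with the 75th percentile and 0.02 with spike-in scaling.

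Between normal mated and vasectomized mated females, 0 of 35 collagen genes were at least 2-fold higher in the normal mated pool, against 14.7% of all 18990 genes compared, and 19 were at least 2-fold lower, against 28.0%, whereas with spike-in scaling 18 were higher and 1 was lower, beside 79.8% and 1.22% of all genes. The median was -1.20, beside -0.27 over all genes. The fibrillar chains had a median of -1.41 with 8 of 11 lower: Col24a1 (-5.16), Col2a1 (-3.01), Col3a1 (-2.58), Col5a3 (-1.72), Col1a1 (-1.58), Col11a2 (-1.41), Col5a2 (-1.34) and Col1a2 (-1.33). The median was -1.62 for type IV, with Col4a5 (-3.04), Col4a6 (-2.01) and Col4a1 (-1.62) lower among 5 compared. It was -0.70 for the other collagens, with Col6a3 (-2.71), Col15a1 (-2.69), Col17a1 (-2.01), Col13a1 (-1.92), Col7a1 (-1.68), Col22a1 (-1.35), Col8a2 (-1.20) and Col16a1 (-1.16) lower among 19.

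Probes again disagreed in this comparison, over 2-fold in 11 of 19 genes and with opposite signs in 8, against 51.7% and 41.7% of all such genes. Both held in 4 of 4 type IV genes. Among 8 fibrillar genes, 5 had probes over 2-fold apart and 2 of opposite sign. Other probes gave -0.86 for Col24a1, 1.55 for Col2a1, a bound of 0.71 for Col11a2, 0.18 for Col4a1, and -0.24 and 0.02 for Col4a6. The probe that gave -5.16 stands for Col24a1 only through its signal in the vasectomized mated pool. In 5 of the 19 every probe was lower in the normal mated pool, against 8.68%, and in 0 was every probe higher, against 7.05%. Spike-in scaling moved the median of all genes to 1.94, and the median of the collagen genes minus that of all genes was -0.93 with either scaling.

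Counts in the lists below stand beside the same shares of all genes: 9.83% higher and 13.2% lower for normal mated versus not mated, and 25.8% higher and 16.5% lower for vasectomized mated versus not mated. A share near these is not a result about the list.

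The enzymes and chaperones that prepare collagen chains did not share the low values of the collagen genes in the normal mated pool. Of 19 such genes compared with the not mated pool, 1 was higher, 1 was lower and the median was -0.06 (0.15 with each array scaled to its median). P4ha1, the catalytic subunit of the enzyme that hydroxylates proline, had 2.08 in the normal mated pool and 1.00 in the not mated pool (1.05). P3h3, of a family of proline hydroxylases, had 1.17 and 2.89 in the same order (-1.30). The isomerase Fkbp10 (-0.73) and the hydroxylase P4ha2 (0.71) stayed within 2-fold. Against the not mated pool, 5 of the 19 were higher and 5 lower in the vasectomized mated pool, with a median of 0.28. Among the largest ratios there were Colgalt2, which adds galactose to collagen (2.81), P3h2 (-2.60), the lysyl hydroxylase Plod1 (-2.45) and the collagen chaperone Serpinh1 (2.35).

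Genes that trim and crosslink collagen outside the cell included 4 lower and 0 higher of 12 in the normal mated pool, with a median of -0.45. Pcolce2, an enhancer of the protease that removes the carboxyl end of procollagen, had 0.239 in the normal mated pool, 0.209 in the vasectomized mated pool and 2.03 in the not mated pool. It was low in both mated pools (-3.09 and -3.28). The protease gene Tll1 was low in both as well (-2.01 and -2.94). The procollagen protease gene Adamts3 (-1.34) and the lysyl oxidase-like gene Loxl3 (-1.27) were lower in the normal mated pool. Of the same 12 genes, 3 were higher in the vasectomized mated pool, namely Loxl2 (2.09), Bmp1 (1.26) and Pxdn (1.05), and 2 were lower.

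Proteins that bind collagen fibrils showed a median near that of the collagens themselves. Of 13 genes compared, 7 were lower and 0 higher in the normal mated pool, with a median of -1.01. Comp, which binds several fibrillar collagens, had 0.110 in the normal mated pool and 0.375 in the not mated pool (-1.77). Tnxb, which spaces fibrils in skin and tendon, had 1.43 and 4.67 (-1.71), and the small leucine-rich proteins Prelp and Epyc were at -1.69 and -1.42. Among these 13, 3 were higher and 5 lower in the vasectomized mated pool, with a median of -0.18: Aspn (3.45) and Postn (2.59) were high, and Comp (-2.54) and Fn1, the gene of fibronectin (-2.51), were low. That median was -0.89 with quantile and -0.80 with cyclic loess normalization, and -0.09 with median scaling.

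The partners of type IV collagen in basement membranes were divided in the normal mated pool, with 2 higher and 4 lower of 14 and a median of -0.65. Lama2, the laminin chain of muscle, had 0.262 in the normal mated pool and 1.47 in the not mated pool (-2.48), and Nid1, which links laminin to type IV collagen, had 2.22 and 7.55 (-1.76). Lamb2 (-1.09) and Lama1 (a bound of -3.55) were lower too. Lamb3, a chain of the laminin beneath epithelia, was higher, at 1.29, and the other gene higher there is counted but not named. Of 15 compared, 2 were higher and 5 lower in the vasectomized mated pool, with a median of 0.18. Lama3 (-2.08), Lamb2 (-1.75) and Lamb3 (-1.26) were low there, and the 2 higher genes are counted but not named.

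Of 9 receptors for collagen, 1 was higher and 1 lower in the normal mated pool, with a median of 0.05. Ddr2, a receptor tyrosine kinase of stromal cells that is activated by fibrillar collagen, had 1.75 in the normal mated pool and 3.88 in the not mated pool (-1.15). Itga2, an integrin chain that binds collagen, was well above background in the normal mated pool only and was at least 14.4-fold higher there. The integrin chains Itga10 and Itga11 (0.87 and -0.65) and the inhibitory receptor Lair1 (-0.74) stayed within 2-fold. In the vasectomized mated pool 6 of 9 receptors were higher and 0 were lower, with a median of 1.47, including Itga1 (3.70), Itga11 (2.25), Lair1 (2.19) and Itga10 (1.01).

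Genes that degrade collagen or restrain its degradation went both ways in the normal mated pool, 5 higher and 5 lower of 13 with a median of 0.13. Mmp8, the collagenase stored in neutrophils, had 0.715 in the normal mated pool, 0.391 in the vasectomized mated pool and 0.0644 in the not mated pool. It was high in both mated pools (3.47 and 2.60). The inhibitors of metalloproteinases were divided: Timp4 (2.85) and Timp1 (2.24) were higher in the normal mated pool, and Timp3 (-2.21) and Timp2 (-1.13) were lower. The other 2 genes higher there were the collagenase Mmp13 (a bound of 1.57) and Mmp9 (1.02). The other 3 lower were the gelatinase Mmp2 (-1.62), the collagen-cutting protease Ctsk (-1.08) and the uptake receptor Mrc2 (-1.05). In the vasectomized mated pool 8 of 13 were higher, with Timp1 (3.73) and Timp4 (3.21) the largest of those measured in both pools, and 2 were lower, Mmp2 (-2.13) and Timp2 (-1.21).

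Regulators of collagen transcription gave 1 higher and 2 lower of 8 in the normal mated pool, with a median of -0.11. The growth factor gene Tgfb2 had 0.324 in the normal mated pool and 1.32 in the not mated pool (-2.03), and the transcription factor gene Twist2 had 0.334 and 1.26 (-1.92). Sox9, which drives Col2a1 in cartilage, was higher (1.03), and Creb3l1 was within 2-fold (0.82). In the vasectomized mated pool 3 were higher and 3 lower, with Ccn2 (2.88), Sox9 (1.70), Creb3l1 (-2.79) and Twist2 (-1.76) at the ends.

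**Figure D4:**
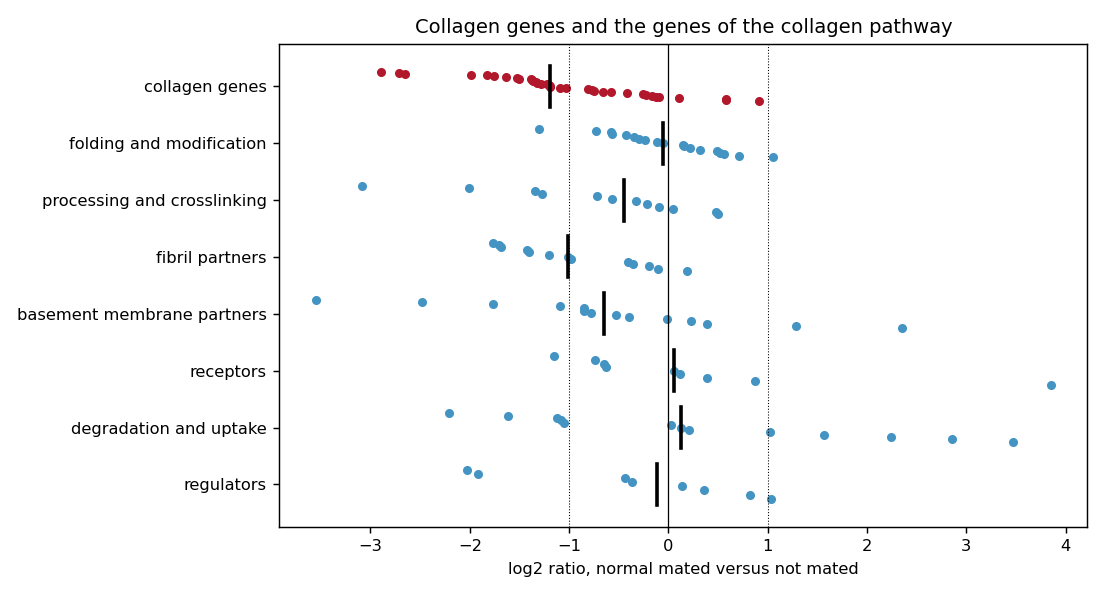
Log2 ratio for normal mated versus not mated females of the 36 collagen genes (red) and of the genes of 7 lists from the collagen pathway (blue, 1 point per gene), with the median of each list as a black bar. Dotted lines mark 2-fold. The medians of the collagen genes and of the fibril partners lie at or below the lower dotted line, and that of folding and modification lies near 0.

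Markers of the cells in this tissue also differed between the pools. In the normal mated pool 3 of 7 fibroblast markers were lower and 0 higher than in the not mated pool (median -0.98), as were 2 of 7 smooth muscle markers (-0.92) and 6 of 7 endothelial markers (-1.87). Higher there were 4 of 7 epithelial markers (median 1.01), 5 of 7 leukocyte markers (2.60) and 4 of 5 mesothelial markers (1.41). The smooth muscle count became 5 of 7 lower with quantile, cyclic loess or normexp processing. None of these 6 lists had a marker below background on all arrays. The summed scaled signal of the fibroblast markers was 160 in the normal mated pool, 316 in the vasectomized mated pool and 193 in the not mated pool. In the same order it was 343, 1270 and 455 for smooth muscle, 8.42, 32.8 and 20.0 for endothelium, 606, 256 and 365 for epithelium, 201, 270 and 55.7 for leukocytes and 29.5, 46.7 and 12.6 for mesothelium. In the vasectomized mated pool the sums of smooth muscle and endothelium were carried by Tagln (913 of 1270) and by Egfl7 and Cdh5 (16.3 and 12.5 of 32.8). They ran against the medians of the gene values given next. For vasectomized mated versus not mated, 3 of 7 smooth muscle markers were higher and 2 lower (median -0.50), 1 of 7 endothelial markers was higher and 4 were lower (-1.25), and 2 of 7 fibroblast markers were higher and 0 lower (0.50). For the epithelial list 1 was higher and 2 were lower (-0.38), all 7 leukocyte markers were higher (2.36) and 2 of 5 mesothelial markers were higher (0.92). The smooth muscle median in that comparison changed sign with the processing. It was 1.00 with the median over probes (4 higher, 2 lower) and -1.38 with quantile normalization (1 higher, 4 lower). The fibroblast median there was 0.60 with the median over probes, and 0.08, 0.13 and 0.02 with quantile, cyclic loess and normexp. Ovary and cumulus markers were higher in 3 of 5 and lower in 1 for normal mated versus not mated (median 1.73), higher in 4 of 5 and lower in 1 for vasectomized mated versus not mated (3.64) and lower in 5 of 5 for normal mated versus vasectomized mated (-1.97). In that last comparison 28.0% of all genes were lower, with a median of -0.27, and with spike-in scaling 79.8% were higher. The summed scaled signal of the ovary and cumulus markers was 0.753 in the normal mated pool, 3.00 in the vasectomized mated pool and 0.531 in the not mated pool. Of these 6 markers, 6, 5 and 3 were well above background in the same order, so some ratios against the not mated pool are bounds. Schwann and nerve markers were higher in 1 of 5 and lower in 1 for normal mated versus not mated (0.11) and higher in 3 of 5 for vasectomized mated versus not mated (1.40), with sums of 3.17, 9.39 and 1.91. The part of the makeup of the tissue samples in the low collagen values was not tested.

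Collagen genes that the array lists under other names were looked up through RefSeq and are not counted above. Col26a1, a collagen known from testis and ovary, was at -1.09 for normal mated versus not mated and at -0.80 for vasectomized mated versus not mated. Col6a4, a further type VI chain in mice, was at -0.81 and 2.03. A probe of Col6a6 was not well above background on any array.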

How the data were processed

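Total RNA of 3 pools of utero-tubular junction was hybridised to Agilent single-colour arrays. Per the file headers, the deposited intensity values are linear processed signals, corrected for background on each array and left unscaled across arrays. The headers name version 10.5.1.1 and build mm7, while the submitters' processing notes name Agilent Feature Extraction 9.5.3. The scan date entry in the headers is the same for all 3 arrays, and no spot was saturated. With 1 array per group, the number of arrays limits the precision, and no p-value is given. The median SD of log2 signal between spots of a probe was 0.0543 in the normal mated, 0.0644 in the vasectomized mated and 0.0577 in the not mated pool, and leaves out animals.

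From the deposited intensities, log2 values were taken relative to each array's own 75th percentile, with control and flagged spots left out. Spots were averaged per probe. A gene was represented by its brightest probe on average, and probes above background nowhere were used only where a gene had no other. A ratio with 1 of its arrays not well above background is a bound, set against the lowest signal among probes well above background, and genes with neither array above it were not compared. Probe names were matched to RefSeq (GRCm38.p6): 22951 by accession, 6659 by symbol and 3109 by synonym, and 8455 keep the array's own name. No annotation of mm7 was used.

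Every collagen gene at least 2-fold different is named. Of each pathway list, up to 4 genes with the largest absolute log2 ratio among those well above background on both arrays are named. Genes that complete a count of 5 or fewer were named after their values were seen. Some genes that the rule names are counted and not reported by name. The members and lists were chosen with earlier results of these data known. The alternatives were median, quantile, cyclic loess and spike-in scaling, normexp background correction, the median over probes, other filters on dim probes and other thresholds. Counting was tested on simulated data. R 4.3.3 with limma 3.58.1 and data.table (version 1.17.8), and Python 3.11.15 with numpy 2.4.6, pandas 2.3.3 and matplotlib 3.10.9 were used.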

Additional observations from a re-analysis of the deposited data

Results flagged for a closer look

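In 3 collagen genes the pools of mated females lay on opposite sides of the not mated pool, each by at least 2-fold, and the difference between them was not tested. For Col24a1 the log2 ratio was -1.36 for normal mated versus not mated and 3.80 for vasectomized mated versus not mated, but its second probe gave -2.50 and -1.65, and the first stands for the gene only because it was bright in the vasectomized mated pool. For Col6a3 the ratios were -1.20 and 1.52, and for Col15a1 they were -1.28 and 1.41, in the same order. The second probe of Col6a3 gave bounds of -2.27 and -1.21, on the same side in both, while that of Col15a1 gave a bound of -1.30 and a ratio of 1.84. With spike-in scaling the vasectomized mated value of Col15a1 was -1.32 and that of Col6a3 was -1.21.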

How the results depend on the processing

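No paired analysis was possible because each group has 1 array, and for the same reason no array could be left out. For normal mated versus not mated, the 21 collagen genes at least 2-fold lower numbered 14 with normexp correction and 26 with spike-in scaling, and 7 passed 3-fold. The share of all genes lower moved too, from 13.2% to 4.81% with normexp and 28.7% with spike-in scaling. In place of 0 higher there was 1 with median scaling, beside 12.4% of all genes, and 1 at 1.5-fold. Shares of all genes were not counted at 1.5-fold or 3-fold in any comparison. The median moved to -0.69 (fibrillar) and -0.78 (type IV) with normexp, to -1.70, -1.78 and -1.55 (fibrillar, type IV, other) with spike-in scaling, and to -0.66 (other) over all probes, and stayed below 0 under every alternative run. Single genes moved further. Of the genes called lower, Col4a3, whose value is a bound, came nearest to 0, at -1.84 to -0.15. Col24a1 ran from -2.50 to -0.27, Col6a2 from -1.74 to -0.40 and Col23a1 from -2.02 to -0.63. Col27a1 ran from -1.85 to -0.68 and Col13a1 from -2.34 to -0.86. Col9a2 (-3.23 to -2.06) and Col1a2 (-1.89 to -1.17) stayed past 2-fold.

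For vasectomized mated versus not mated, the 10 higher and 8 lower became 6 and 5 at 3-fold and 1 and 30 with spike-in scaling, where the class medians were -2.34, -2.51 and -2.80. Reversed there were Col11a2 (-1.41), Col15a1 (-1.32), Col5a3 (-1.17), Col6a3 (-1.21), Col8a2 (-0.95), Col17a1 (-0.61), Col4a5 (-0.46) and Col3a1 (-0.38). Over all probes Col6a2 was at 0.21. For normal mated versus vasectomized mated, 12 genes were lower at 3-fold. In place of 0 higher there were 2 at 1.5-fold, and 1 each with median scaling, quantile, cyclic loess and no filter on dim probes. With spike-in scaling 18 were higher and 1 lower, and the class medians were 0.80, 0.60 and 1.51. Reversed there were Col16a1 (1.05), Col8a2 (1.01), Col1a2 (0.88), Col22a1 (0.87), Col5a2 (0.87), Col11a2 (0.80), Col1a1 (0.64), Col4a1 (0.60), Col7a1 (0.53), Col5a3 (0.49), Col13a1 (0.30), Col17a1 (0.20) and Col4a6 (0.20).

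Spike-in scaling adds 1 constant to every ratio of a comparison, which moved the median of all genes to -0.58, -2.61 and 1.94 for the 3 comparisons, so these reversals say nothing of collagens relative to other genes. Adding the collagens that the array lists under other names, and choosing the probe of a gene on the arrays compared, both chosen after seeing the data, left every count within 1.5 times. Over the scalings and normexp, markers lower in the normal mated than in the not mated pool numbered 1 (median scaling) to 6 (spike-in) of 7 for smooth muscle, 3 to 4 for fibroblasts and 5 to 7 for endothelium. The share of all genes lower ran from 4.81% (normexp) to 28.7% (spike-in) over the same settings, with 9.25% for median scaling. Smooth muscle markers lower numbered 5 of 7 with each of quantile, cyclic loess and normexp, beside 10.6%, 9.93% and 4.81% of all genes. The cause of the other changes was not tested. Genes near background have bounds only, and 4 collagen genes could not be compared.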
